A study of Homo sapiens with 12 samples.

Results

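Narrow ac4C peaks of medium score that were listed after NAT10 knockdown and had no counterpart in control cells numbered 1454, out of 28047 peaks in the knockdown list and 34365 in the control list. They were chosen by the deposited values themselves: a peak score from 15 to under 50, a width of 1000 bp or less, and no overlap of 1 bp or more with a control peak on the same strand. Their scores, widths and absence from the control list are therefore a description and not a result. The same limits on score and width left 4286 knockdown peaks, of which 33.9% had no control overlap, against 44.4% of all knockdown peaks. In the control list, 1923 of 4611 narrow peaks of medium score (41.7%) had no knockdown overlap, and these control-only peaks serve below as the mirror set.

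N4-acetylcytidine (ac4C) is a cytidine that carries an acetyl group on its base. NAT10 is the enzyme known to write it, on ribosomal RNA, on transfer RNA with the adaptor THUMPD1, and, as reported for mRNA, within or near runs of cytidines spaced by other bases. Acetylation in mRNA has been linked to RNA stability and translation. In acRIP-seq, RNA fragments bound by an antibody against ac4C are sequenced along with an input portion, and a peak marks a stretch where the pulled-down reads pile up.

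The cells were RBE, a human intrahepatic cholangiocarcinoma line. Cells infected with a lentivirus for a short hairpin against NAT10 (sh-NAT10) and selected with puromycin were set against cells with a control hairpin (sh-NC), each with 3 immunoprecipitates and 3 inputs, 12 libraries in all. The knockdown line was grown from resistant colonies, the labels describe the infection for the sh-NAT10 virus only, and nothing says that the replicates were separate cultures. The authors deposited 1 peak list per arm, so the spread between replicates cannot be seen, no difference between arms is tested, and the read depth is unknown. Whether a site missing from a list had less acetylation, less RNA or fewer reads cannot be told apart, and neither, in bulk RNA, can fewer cells with a site and less acetylated RNA per cell. The cell line label was checked on marker genes. Of 8 biliary markers 7 had a peak in the knockdown list and 7 in the control list, among them KRT7 and KRT19, while EPCAM had none in either. Neuronal markers had peaks on 3 of 7 genes in the knockdown list and 6 of 7 in the control list.

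Few of the sites reached one of the gene starts that could be looked up. Start regions were at hand for 79.1% of coding genes and 45.8% of all genes, so sites at other starts were not counted. In all 9 knockdown-only peaks (0.619%, 95% interval 0.326 to 1.17) touched the region from 250 bp before to 50 bp after an annotated gene start on the same strand, and in 2 of them the covered letters lay entirely before that start. The same share was 1.73% (1.31 to 2.28) of the 2832 knockdown peaks of like score and width that overlap a control peak, and 0.416% (0.211 to 0.819) of the control-only peaks. In all, 4 of the 9 regions are shown as letters because they are where the sequence under these peaks can be read from the tables used here, which hold start regions and no genome. The letters are RefSeq sequence of build GRCh38.p14, 5′ to 3′ on the strand of the peak, and capitals mark the bases under the peak. The PTPRK peak, with a score of 28.0, crosses into a region at chr6:128184426-128184675 (minus strand) that lies before the start of LOC124900216 and inside the span of PTPRK, a receptor-type tyrosine phosphatase. The P4HA2 peak, with a score of 16.4, lies wholly in chr5:132227092-132227341 (minus strand), before a start of this collagen prolyl hydroxylase gene. The MICAL2 peak is 25 bp wide, has a score of 16.998 and straddles a start of this actin-oxidising enzyme gene in chr11:12161829-12162091 (plus strand). The MIR4435-2HG peak, with a score of 21.95, straddles the start of LOC124907867 in chr2:111248178-111248457 (minus strand), inside a long noncoding RNA gene.
PTPRK: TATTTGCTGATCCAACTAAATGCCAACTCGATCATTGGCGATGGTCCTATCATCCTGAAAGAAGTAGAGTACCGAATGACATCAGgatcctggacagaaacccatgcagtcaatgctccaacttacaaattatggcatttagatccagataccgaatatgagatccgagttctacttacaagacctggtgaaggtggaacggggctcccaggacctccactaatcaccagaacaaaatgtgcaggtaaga
P4HA2: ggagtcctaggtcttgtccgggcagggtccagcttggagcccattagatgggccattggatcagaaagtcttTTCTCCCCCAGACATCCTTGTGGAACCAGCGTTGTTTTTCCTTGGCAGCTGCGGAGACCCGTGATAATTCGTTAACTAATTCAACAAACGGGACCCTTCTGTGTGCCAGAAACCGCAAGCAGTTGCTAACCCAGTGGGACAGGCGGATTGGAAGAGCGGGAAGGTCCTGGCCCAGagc
MICAL2: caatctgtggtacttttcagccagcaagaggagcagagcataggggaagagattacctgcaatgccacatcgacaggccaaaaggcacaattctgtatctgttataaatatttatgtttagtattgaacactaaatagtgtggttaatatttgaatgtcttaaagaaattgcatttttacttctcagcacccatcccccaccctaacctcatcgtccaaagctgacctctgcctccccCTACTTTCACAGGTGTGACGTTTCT
MIR4435-2HG: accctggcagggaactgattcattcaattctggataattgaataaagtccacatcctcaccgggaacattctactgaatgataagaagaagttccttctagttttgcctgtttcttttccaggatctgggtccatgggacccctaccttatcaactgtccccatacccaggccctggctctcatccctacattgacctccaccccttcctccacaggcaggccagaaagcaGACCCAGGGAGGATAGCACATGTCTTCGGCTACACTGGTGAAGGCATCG
Over the whole 300-base region, cytidine made up 18% to 31.7% of the letters in the 9 regions, and the median over all 35116 start regions was 28% (5th to 95th percentile 16% to 42%). Of the covered bases alone, stretches of 22 to 254 letters, it made up 22.4% to 36.4%, and the highest of these values rests on 8 of 22 bases on ZBTB7B. A run of 5 cytidines at every 3rd base (CNNCNNCNNCNNCNN) occurred on the gene strand in 3 of the 9 regions and on the opposite strand in 3, with 5 holding it on either strand. Over all start regions it occurred on the gene strand in 50.03% and on either strand in 71.0%.

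Most of the sites lay at the low end of the medium scores. Scores had a median of 18.4 (interquartile range 16.4 to 23.1) and ran from 15.0005 to 48.9, where 71.1% of all knockdown peaks scored below 15 and 97.3% below 50. Of the 1454 peaks 902 scored under 20 and 157 scored 30 or more. Widths had a median of 125 bp (75 to 228.5), and 695 peaks (47.8%) were 100 bp wide or less. Among narrow knockdown peaks of medium score, the part without a control counterpart was 46.2% (95% interval 42.4 to 50.2) at widths up to 50 bp, and between 27.1% and 33.0% in the wider classes. By score it was 36.2% (34.3 to 38.1) from 15 to under 20 and 25% (18.9 to 32.2) from 40 to under 50. These intervals cover counting error only and treat peaks as independent, which they are not.

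**Figure D1:**
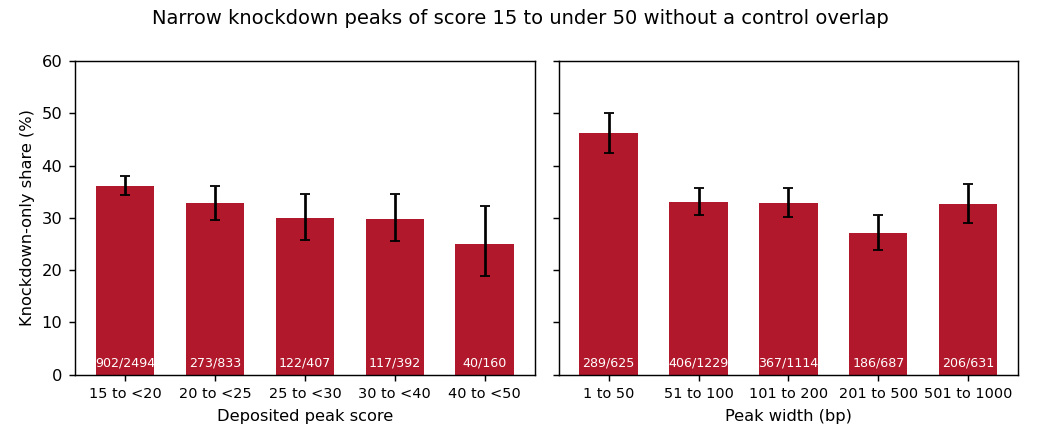
Share of narrow knockdown peaks of medium score with no same-strand control overlap, by deposited score (left) and width in bp (right). Bars are percentages, error bars are 95% Wilson intervals, and white figures give the counts. The share is 46.2% in the narrowest class and 25% in the highest score class.

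At the limits of the rule, neighbouring peaks had nearly the same values. The lowest score inside was 15.0005, on NELFA, and the highest just outside was 14.9994, on GIPC1. At the upper limit, the NOL11 peak scored 48.9 and the first one outside, on SLC38A2, scored 50.1. The widest peak inside was 997 bp, on PYGL, and the narrowest one outside was 1010 bp, on SEC13. On VEZT, NEO1 and CLASP1 a knockdown peak stood directly beside a control peak with 0 bases between them. On RBM5, PLXND1 and ITGA3 an overlap of 25 bp kept a peak out. Those peaks were 870, 25 and 50 bp wide, so the overlap covered all of the PLXND1 peak. Beyond the rule there were 7922 narrow knockdown-only peaks with a score under 15 and 52 with a score of 50 or more.

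Absence of an overlapping control peak often did not mean absence of a nearby one. The nearest control peak on the same strand was under 200 bases away for 214 of the 1454 peaks (14.7%, 12.99 to 16.6), under 1000 for 441 (30.3%) and under 10000 for 852 (58.6%), with a median of 5219 bases. For the control-only mirror peaks the nearest knockdown peak was under 200 bases away in 10.6% (9.31 to 12.1), under 1000 in 22.8% and under 10000 in 49.8%, with a median of 10211 bases. In the knockdown-only set 30 peaks touched a control peak directly, and in the control-only set 31 touched a knockdown peak. Of the 214 knockdown-only peaks with a control peak under 200 bases away, 209 (97.7%) were separated from it by a whole multiple of 25 bases, as were 202 of 204 control-only peaks from a knockdown peak (99.0%). Widths followed the same step, with an exact multiple of 25 bp in 986 knockdown-only peaks (67.8%), in 68.0% of the knockdown peaks that overlap a control peak and in 78.7% of the control-only ones. On the opposite strand a control peak covered 64 of the 1454 sites (4.40%).

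**Figure D2:**
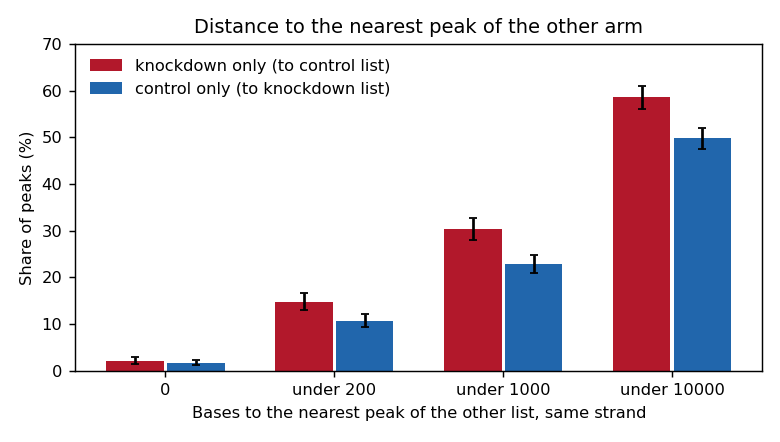
Bases from each narrow peak of medium score to the nearest peak of the other list on the same strand, as the share of peaks under each distance, where 0 means directly adjacent. Red bars are the 1454 knockdown-only peaks measured to the control list, blue bars the 1923 control-only peaks measured to the knockdown list, and error bars 95% Wilson intervals. Under 1000 bases the shares are 30.3% and 22.8%.

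Protein-coding genes held most of the sites. Of the 1454 peaks 1310 (90.1%, 88.5 to 91.5) lay in the span of a protein-coding gene, 99 in a pseudogene and no coding gene, 38 in a long noncoding RNA gene and no coding gene, and 7 in no annotated gene. The share in coding genes was 87.1% (85.9 to 88.3) of the 2832 knockdown peaks of the same score and width that overlap a control peak, and 91.5% (90.1 to 92.6) of the control-only peaks. Exactly 1 gene was overlapped by 1255 of the sites. Where the annotation used here gave the strand of that gene, 946 of 980 peaks (96.5%) lay on it, against 97.7% of the knockdown peaks with a control overlap and 98.3% of the control-only peaks. The highest-scoring of the 34 others, a 150 bp peak with a score of 42.6, lay on the minus strand of the plus-strand gene RAB3GAP1, a regulator of RAB3.

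Along coding genes the sites leaned toward the far end, less so than control-only peaks in the last 10% of the span. Of 1149 knockdown-only peaks inside 1 coding gene, 17.7% (15.6 to 20.0) had their midpoint in the last 10% of the span, as had 18.9% (17.3 to 20.7) of the knockdown peaks that overlap a control peak and 32.6% (30.3 to 35.0) of the control-only peaks. The first 10% of the span held 6.88% (5.55 to 8.49) of the knockdown-only peaks, 11.8% (10.4 to 13.2) of the overlapping knockdown peaks and 2.89% (2.16 to 3.86) of the control-only peaks. The difference was not tested, since there is 1 list per arm. Within 1000 bp of the gene end lay 5.31% of the knockdown-only peaks, 9.70% of the overlapping knockdown peaks and 8.93% of the control-only peaks. Within 1000 bp of the gene start lay 4.79% of the knockdown-only peaks, 10.8% of the overlapping knockdown peaks and 2.23% of the control-only peaks. By this fixed distance the overlapping knockdown peaks had the highest share at both ends, whereas by 10% of the span the control-only peaks had the highest share at the gene end. A lean of all control peaks toward gene ends was known from these lists beforehand, so the difference at the last 10% is no independent observation. Spans include introns, and position relative to exons and coding sequence was not analysed here.

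**Figure D3:**
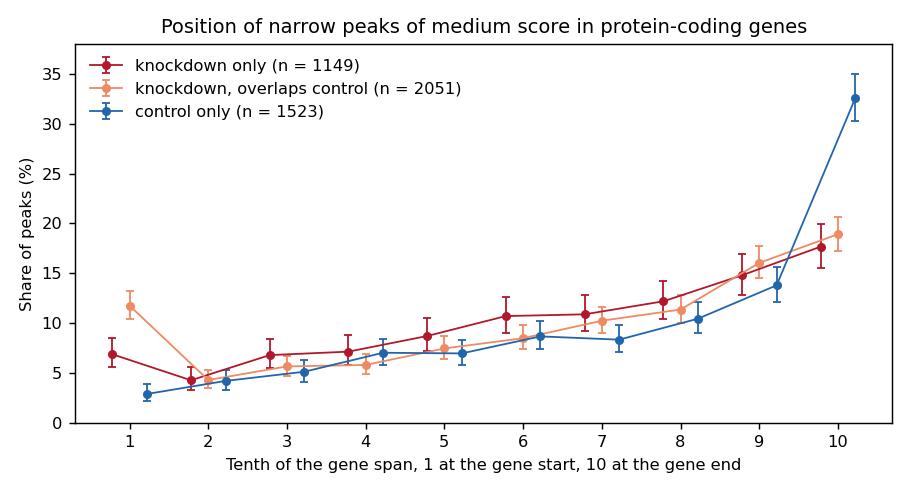
Position of narrow peaks of medium score along the span of protein-coding genes, in steps of 10% from gene start (1) to gene end (10), for peaks that overlap exactly 1 gene. Points are the share of peaks in each set, with 95% Wilson intervals. The last 10% holds 17.7% of knockdown-only, 18.9% of overlapping knockdown and 32.6% of control-only peaks.

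The sites were spread thinly over many genes, most of which also had control peaks elsewhere. The 1149 peaks inside 1 coding gene fell on 995 genes, which is 4.97% of all coding genes and 11.8% of the 8429 with any knockdown peak. Of the 995 genes 866 had 1 such peak, 111 had 2, 14 had 3 and 4 had 4 or more. Over all gene classes, 1030 of the 1255 peaks inside 1 gene (82.1%, 79.9 to 84.1) lay on a gene that had a control peak at another place, and 225 did not. The share was 89.0% (87.7 to 90.3) for the knockdown peaks that overlap a control peak, counting other control peaks of the gene. For the control-only peaks, 76.0% (73.9 to 78.0) lay on a gene with a knockdown peak elsewhere. With these sites counted, knockdown peaks outnumbered control peaks on 65.5% of the 995 genes, against 43.1% of all 8429 with a knockdown peak. The choice of the sites favours that excess. Leaving the sites out, knockdown peaks outnumbered control peaks on 379 of the 995 genes, were fewer on 361 and were equal on 255. That count keeps the control-only peaks, so it leans toward control peaks. A narrow control-only peak of medium score was present as well on 170 of the 995 genes (17.1%), which is 13.9% of the 1227 genes with such a control-only peak. The 995 genes had a median span of 49652 bp, against 34079 bp for genes with an overlapping knockdown peak of the same kind and 24115 bp for all coding genes.

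CTNNB1, which encodes the adhesion and Wnt signalling protein beta-catenin, was among the genes with most of these sites. It spans chr3:41199505-41240443 on the plus strand and had 8 knockdown peaks against 3 control peaks. Its 4 knockdown-only peaks of medium score lay between 61.9% and 90.3% of the span, with scores of 17.9, 23.5, 20.0 and 15.4 and widths of 219, 50, 125 and 75 bp. The nearest control peaks were 2259 to 5678 bases away and scored 12.4 and 12.5. Another 2 of its knockdown peaks overlapped control peaks. The stronger of them scored 25.2 in the knockdown list, against 12.4 in the control list, and scores of different lists are not on a known common scale.

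LRPPRC, a regulator of mitochondrial mRNA, also carried 4, with scores from 15.3 to 22.6, among 15 knockdown and 12 control peaks. The 4 sites of DYNC1H1, the heavy chain of cytoplasmic dynein, scored 15.2 to 23.5 among 39 knockdown and 37 control peaks, and each stood within 411 bases of a control peak. Those on LRPPRC stood between 125 and 5552 bases from one. NBPF19, from a family of near-identical gene copies, had the most, with 7 sites scoring 15.2 to 21.7 among 44 knockdown and 12 control peaks, and reads of such copies can be split between them.

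Another 14 coding genes carried 3 sites each, of which 11 are described here. MMS19, which hands iron-sulfur clusters to DNA repair enzymes, had scores of 48.5, 39.0 and 18.7 among 8 knockdown and 2 control peaks. NUP54, a protein of the central channel of the nuclear pore (chr4:76114664-76148397, minus strand), had 42.9, 38.7 and 21.4 as its only 3 knockdown peaks, and no control peak. IKBKB, a kinase that activates NF-kappa-B, had 30.9, 24.6 and 18.2 among 7 knockdown and 3 control peaks. ITPR3, an IP3 receptor calcium channel, had 25.9, 20.3 and 15.2 among 19 and 15. USP34, a deubiquitinase, had 11 knockdown and 11 control peaks, and the nuclear envelope linker SYNE1 had 14 and 14. The clathrin heavy chain gene CLTC had 15 and 13. The 3 sites of CLTC lay opposite a minus-strand peak of 17788 bp. That peak was in both lists, scoring 24.5 in the knockdown and 63.4 in the control list. The spliceosomal GTPase gene EFTUD2 had 10 and 7 and the adhesion receptor gene ADGRG6 7 and 5. FNDC3B had 11 and 6, and TMEM131, which takes part in collagen secretion, 5 and 6.

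The 192 sites that overlap 2 or more genes were not ranked here. Among sites on a gene and no other gene, the 12 highest-scoring scored from 44.96 to 48.9. The top one, 75 bp at chr17:67737632-67737706 on NOL11, a ribosome biogenesis factor of the small-subunit processome, scored 48.9. A control peak lay 100 bases from it. STK26, a serine/threonine kinase, followed with 48.7 and MMS19 with 48.5. MTREX, the RNA helicase of the nuclear exosome, had 48.4, and EXOSC8, a core subunit of the same exosome, had 47.1. LGALS3BP, a secreted glycoprotein, had 48.1 among 7 knockdown and 8 control peaks, and NCLN, an endoplasmic reticulum membrane protein, had 47.1 with a control peak 25 bases away. FAM162A, a mitochondrial protein, had 46.4, the replication origin kinase gene CDC7 46.0, the focal adhesion gene LPP 45.4 and FUBP1, a single-stranded DNA-binding regulator of MYC, 45.2. The pseudogene FNTAP1 had 44.96. Of these 12 sites, those on NCLN, NOL11 and LGALS3BP had a control peak within 250 bases, while on LPP, FNTAP1 and CDC7 the nearest one was 116177, 149504 and 531153 bases away.

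On 154 of the 995 coding genes (15.5%) no control peak was listed anywhere in the span, against 17.4% of all 8429 coding genes with a knockdown peak. On 85 of the 154 the site was the gene's only knockdown peak, and 14 carried 2 or more. After NUP54, the leading ones were EXOSC8 with scores of 47.1 and 31.7, and CDC7 with 46.0 and 15.2. Both had these as their only knockdown peaks. PIP4P1, a phosphoinositide phosphatase, had 34.7 and 22.5, POLR3A, the largest subunit of RNA polymerase III, 32.0 and 20.4, and KIF4B, a chromosome-arm kinesin, 26.6 and 15.2. BRMS1, a regulator of transcription named for its suppression of metastasis, had 25.9 and 15.8. APEX1, the main endonuclease at abasic DNA sites, had 23.1 and 15.1, and TTI1, which helps assemble large kinases such as mTOR, had 22.1 and 16.2. MCCC1, of leucine breakdown, had 28.3 and 15.9, but the first of these lay on the strand opposite to the gene. The spans of PIP4P1 and APEX1 overlap slightly on chromosome 14, from 20457681 to 20461434 for PIP4P1 and from 20455226 to 20457767 for APEX1, and the sites of PIP4P1 lay on the minus strand and those of APEX1 on the plus strand.

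The study's own genes were represented once. NAT10 (chr11:34105629-34146908, plus strand) had 5 peaks in both lists, and 1 of its knockdown peaks belonged to this set. That peak ran from 34141133 to 34141742, 610 bp wide, at 86.7% of the span, with a score of 30.5, and the nearest control peak was 8103 bases away. NAT10 also had 2 narrow control-only peaks of medium score. CHAF1A, the CAF-1 subunit that the study followed by RT-qPCR, had 5 knockdown and 13 control peaks and none of these sites.

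Gene groups were described by how many of their genes carried a site, beside 4.97% of all coding genes and 11.8% of coding genes with a knockdown peak. Expression was not measured in these lists, so a group was not matched for it, and the same count for control-only peaks of medium score is given with each group. Shares of a group's genes with any knockdown peak, to be read beside the 11.8%, follow the counts. Overlapping knockdown peaks of the same kind lay on 7.16% of all coding genes. They lay on 14 of 47 nuclear pore and lamina genes, 33 of 79 splicing factors and 10 of 38 proteasome genes. For translation factors it was 22 of 50, for chromatin remodelling genes 19 of 46 and for cholangiocarcinoma and biliary genes 16 of 41. For DNA replication genes it was 13 of 71. High shares in these groups were therefore not particular to the knockdown-only sites. No test of a group was made. Nuclear pore and lamina genes had a site on 13 of 47 (27.7%, or 30.2% of those with a knockdown peak) and a control-only peak on 7 (14.9%). Beside NUP54 and SYNE1 these included NUP155 and NUP188, scaffold nucleoporins, with 2 sites each and top scores of 26.7 and 23.6, and NUP210, a membrane nucleoporin, with 2 and 15.7. Splicing factors had a site on 18 of 79 (22.8%, or 27.3% of those with a knockdown peak) and a control-only peak on 11 (13.9%), among them EFTUD2 with 3, the helicase DHX38 with 2, PRPF4 with a score of 31.1, PRPF19 with 29.2 and SRSF1 with 25.1. Proteasome genes had a site on 8 of 38 (21.1%, or 25% of those with a knockdown peak) and a control-only peak on 3 (7.89%). PSMB4, a core subunit, had 2 with a top score of 38.1, and PSMD11, PSMD6, PSME1 and PSMD13 had 1 each.

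DNA replication and cell cycle genes carried a site on 14 of 71 (19.7%, or 22.95% of those with a knockdown peak) and a control-only peak on 8 (11.3%). The origin recognition subunit ORC5 scored 40.7 on its only knockdown peak, with no control peak. GINS1, a subunit of the replicative helicase, scored 37.8, POLD2, of DNA polymerase delta, 37.1, the helicase subunit MCM3 30.2 and the kinase CDK2 28.0. Translation factors had a site on 12 of 50 (24%, or 27.9% of those with a knockdown peak) and a control-only peak on 9 (18%), with EIF5B, which joins the ribosomal subunits, carrying 2, EIF3H scoring 24.1, EIF3F 21.02, EIF2A 20.2 and EIF2B4 20.1. Cytosolic ribosomal protein genes had a site on 2 of 78 (2.56%, or 3.13% of those with a knockdown peak), RPL13 at 21.1 and RPS3A at 16.2, and a control-only peak also on 2. Of the 78 genes 32 had a narrow medium knockdown peak that overlaps a control peak. Ribosome biogenesis genes had a site on 8 of 81 (9.88%, or 12.7% of those with a knockdown peak) and a control-only peak on 10 (12.3%). MDN1, the large ATPase of ribosome assembly, had 2 with a top score of 30.1, NPM1 24.7 and GNL3 24.5. Respiratory chain genes had a site on 7 of 76 (9.21%, or 14.6% of those with a knockdown peak) and a control-only peak on 4 (5.26%), among them ATP5F1A at 19.9, ATP5MC2 at 18.9, NDUFB8 at 18.2, on the strand opposite to the gene, NDUFS6 at 17.5 and NDUFB4 at 16.8.

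Chromatin genes were represented in both directions. Chromatin remodelling genes had a site on 11 of 46 (23.9%, and all 46 had a knockdown peak) and a control-only peak on 13 (28.3%), with both on 7 of them. CHD8 had 3 sites with a top score of 18.6, and GATAD2B, a NuRD subunit, 2 with 39.2. ARID1B had 2 with 19.7, BAZ2A, which silences ribosomal DNA, 2 with 17.3, and CHD1 had 1 at 41.3. CAF-1 and histone chaperone genes had a site on 3 of 24 (12.5%, or 15% of those with a knockdown peak), NPM1, RBBP7 at 15.5 and SET at 15.03, and a control-only peak on 6 (25%). Of the 33 transposable element silencing genes 5 had a site and 5 a control-only peak (15.2% for both), and the sites fell on 20.8% of those with a knockdown peak. MOV10, an RNA helicase that restrains retrotransposons, scored 35.8 and HELLS, a chromatin remodeller needed for DNA methylation, 35.7. UHRF1 scored 15.9, as did SUV39H1, whose site lay opposite to the gene's strand, and EHMT2 scored 15.5.

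Cholangiocarcinoma driver and biliary genes had a site on 8 of 41 (19.5%, or 21.6% of those with a knockdown peak) and a control-only peak on 6 (14.6%). After CTNNB1 came the biliary keratin gene KRT7 with a score of 19.9, NOTCH1 with 18.2, YAP1, the Hippo pathway effector, with 17.1 and NOTCH2 with 16.3. Among RNA modification enzymes NAT10 was the 1 gene of 39 with a site (2.56%, or 3.85% of those with a knockdown peak). Of the 39, 4 had a control-only peak (10.3%) and 9 an overlapping knockdown peak of the same kind. None of 34 genes of interferon and double-stranded RNA sensing carried a peak of either kind, and 10 of them had any knockdown peak. Replication-dependent histone genes had a site on 0 of 54, although 17 had a knockdown peak, and a control-only peak on 1. An overlapping knockdown peak of the same kind lay on 10 of the 54. Neuronal genes had a site on 0 of 47, although 28 had a knockdown peak, and a control-only peak on 14 (29.8%). The loss of neuronal peaks was known from these lists beforehand. The part of other cell types in these counts was not tested.

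**Figure D4:**
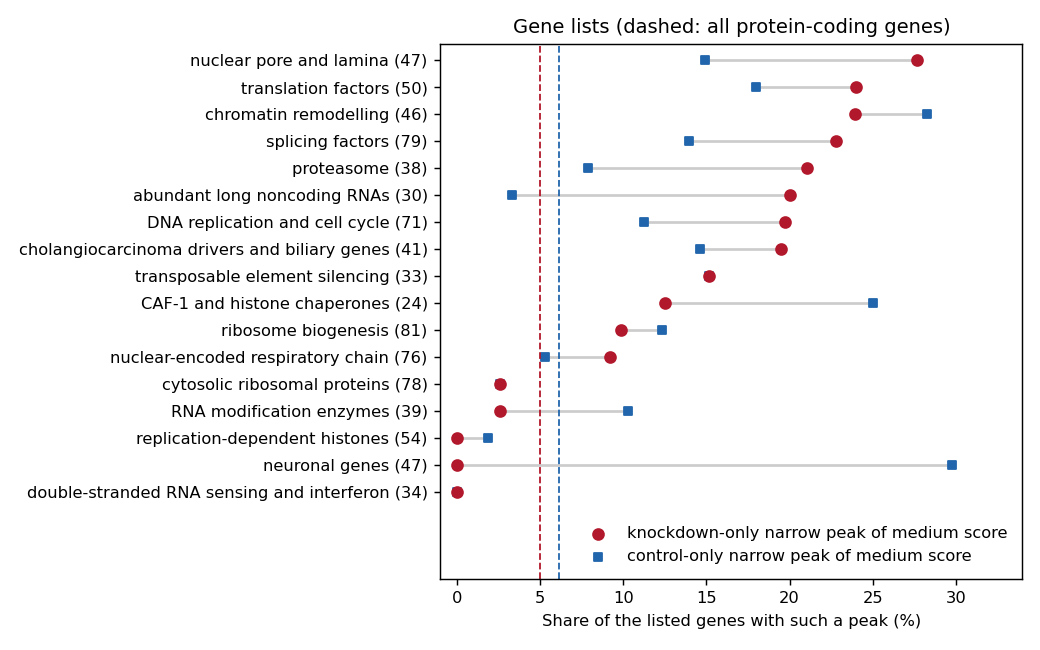
Share of the genes of each list that carry a knockdown-only (red circles) or control-only (blue squares) narrow peak of medium score, with the number of annotated genes in brackets. Dashed lines give the same shares over all coding genes, 4.97% and 6.12%, and do not apply to the noncoding list. Nuclear pore and lamina genes lie at 27.7% and 14.9%, neuronal genes at 0% and 29.8%.

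Noncoding genes held few of the sites. Of them, 12 overlapped a long noncoding RNA gene and no other gene, and these fell on 11 genes. The 11 genes are 0.0601% of all 18303 long noncoding RNA genes and 0.53% of the 2075 with a knockdown peak in their span on either strand. The 2075 include genes whose knockdown peaks overlap other genes as well, which lowers this share. A control-only peak of medium score was likewise on 11 genes. On the list of long noncoding RNAs known to be abundant 6 of 30 (20%, or 28.6% of those with a knockdown peak) carried a site and 1 a control-only peak. An overlapping knockdown peak of the same kind lay on 3 of the 30. The listed genes were not matched to the others for expression or for overlap with coding genes. SNHG1, a host of small nucleolar RNAs, scored 32.4 on its only knockdown peak and had no control peak. JPX, which acts in X inactivation, scored 31.2, LINC-PINT 26.6 and SNHG15 18.9. SNHG16 had 2, scoring 17.97 and 15.98, with the weaker one on the strand opposite to the gene. Of all 1454 sites 1 overlapped an annotated microRNA hairpin.

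Pseudogenes carried more. In all 94 sites lay on 91 pseudogenes and no other gene, which is 7.49% of the 1255 sites inside 1 gene, against 9.66% of the knockdown peaks with a control overlap and 6.86% of the control-only peaks. FNTAP1 had a score of 44.96, FARSBP1 43.6, CTDSPL2P1 41.9 and RPS15AP21 41.3, each as the pseudogene's only peak in either list. SCDP1, a copy of the stearoyl-CoA desaturase gene SCD, had 2 with a top score of 34.3, CCT5P1 2 with 26.1 and NSUN5P1 2 with 19.9. For 71 of the 94 sites the symbol names a coding parent gene. That parent had a knockdown peak in 64 cases and a control peak in 63, but in 7 cases a site of the same kind. Reads from a parent transcript and its copy can be assigned to either, so these sites are uncertain as to their gene.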

How the data were processed

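The submitters' processing notes name the hg38 build and the tools Bowtie2 2.4.1 and fastp 0.20.1, without their roles. How peaks were called, at what threshold, whether inputs entered and whether replicates were pooled is not stated in the labels or files. For each arm the authors deposited a single list, 1 block to a peak, with a peak score of unstated scale that serves here to select and rank within that list. NC in a list's name matched the control samples, and the remaining list was taken as that of the knockdown. The lists carry no values by replicate, so no p-value is given. Intervals are 95% Wilson intervals.

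Overlaps used at least 1 bp on the same strand. The 1454 peaks were also found with bedtools 2.31.1. Genes are RefSeq spans of GRCh38.p14, the same build as hg38, overlapped on either strand. Gene strand came from a table of gene starts that covers 79.1% of coding genes, and where it was missing position along the gene was counted in the direction of the peak's strand. The overlap step was tested on simulated data, where 1381 moved copies were all found (100%) and 0% of opposite-strand copies. Python 3.11.15, NumPy 2.4.6, pandas 2.3.3 and matplotlib 3.10.9 were used.

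The peaks, the gene lists and the naming rule were chosen with earlier results of these data known. The rule names the 15 genes with most sites and the 12 highest-scoring sites on a gene and no other gene. It also names the 10 leading coding genes without control peaks, the 8 leading noncoding genes and up to 5 genes of each list. NAT10, CHAF1A, sites at gene starts and peaks at each limit complete it. RAB3GAP1 was named after its value was seen. Alternatives covered overlap, score, width, merging and gene assignment.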

Additional observations from a re-analysis of the deposited data

How the results depend on the processing

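Of 33 recalculated values 27 stayed close to the reported ones, within 1.5 times for the number of sites and within the 95% interval for shares. The 6 others follow. With scores from 20 to under 50 the number of sites was 552, the share on genes with a control peak elsewhere 77.4% and the share in the last 10% of the span 13.5%. With control peaks under 200 bases away also counted as overlap, the share on genes with a control peak elsewhere was 78.9%. With genes assigned by strand, the share in coding genes was 71.3%. Of the 274 sites that left the class, 207 overlapped a coding gene without a strand in the table used, and 67 lay only opposite to coding genes with a strand. Among sites inside exactly 1 gene the share was 91.6%. Apart from the setting of 552 sites, the number ranged from 1240, with nearby control peaks counted, to 1716, with at least 50% of the peak overlapped. No paired analysis was possible because there is 1 list per arm with no values by replicate, and for the same reason no replicate could be left out. Depth is unknown, so a weak site missed in 1 arm cannot be told from an absent one.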
